A study of Sus scrofa with 37 samples.

Results

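The genes described here act at 3 steps of glucose use that are handled in a particular way in pancreatic beta cells: the phosphorylation of glucose, the control of phosphofructokinase, and the exchange of pyruvate and lactate. They were the 9 symbols HK1, HK2, LDHA, LDHB, SLC16A1, SLC2A1, PFKFB1, PFKFB2 and PFKFB3. Each was looked up by its Ensembl pig identifier among the 25880 identifiers shared by the count tables of pancreas and islets. There were 7 with a row in both tables. SLC16A1 and SLC2A1, a monocarboxylate carrier and a glucose carrier, were not analysed here.

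Hexokinases trap glucose inside the cell. HK1 and HK2 are high-affinity forms used by most tissues, and they work near saturation at the glucose concentrations of blood. The PFKFB enzymes are bifunctional: they make and remove a fructose bisphosphate that activates phosphofructokinase, the committed step of glycolysis. Lactate dehydrogenase is built from LDHA and LDHB subunits and interconverts pyruvate and lactate. In rodents, HK1, LDHA and SLC16A1 are among the genes called disallowed in beta cells, because they are expressed in most tissues and held low there, which keeps the cell from answering to circulating pyruvate or lactate and directs pyruvate to mitochondria.

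RNA had been sequenced from pigs with a label of High or Low islet density. No strain, age, genotype or treatment is given in the labels, nor how density was measured. Pancreas was a piece of 50 mg from the duodenal lobe, taken at retrieval of the organ, and islets had been purified and then cultured without attachment for 7 days, so tissue and culture cannot be told apart. Of 37 samples, 35 had a column of counts: pancreas had 8 High and 9 Low libraries, and islets had 8 High, 9 Low and 1, from animal 12AS51, without a density label. The libraries of a tissue carry different animal codes, and 16 animals have both tissues counted, of which 11 carry 1 label throughout and 4 carry different labels.

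The libraries differed in ways that touch the results. Islet libraries held 3237653 to 6702589 counts and High pancreas libraries 1855075 to 3922006. Of the 9 Low pancreas libraries, 7 held only 265000 to 536014 counts, and they are called shallow here. Their composition stood apart as well: 10 genes took 53.3 to 71.7% of their counts, against 29.3 to 45.1% in the other 10 pancreas libraries. They include all 6 pancreas libraries of animals whose code begins with 14, and every animal with that code was labelled Low. Levels are given as CPM, the counts per 1000000 counts of the library. On that scale a floor of 3 counts lay at 5.60 to 11.3 CPM in the shallow libraries, against 0.765 to 1.62 CPM in the deeper pancreas libraries. For the 12AS51 islets, 10 genes took 87.8% of the counts and summed pan-endocrine markers reached 5879 CPM, against 19167 to 33971 CPM in the other 17 islet libraries. The source name of this sample and of the 11KS28 islets reads Pancreas, although summed acinar markers were 4.77 CPM in the first and 19.4 CPM in the second. Floors cover counting error only.

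Acinar markers separated the tissues in every library. Summed CPM of 13 acinar markers was 7.13 to 539 in the 17 islet libraries with a density label and 10768 to 263099 in pancreas. All 13 acinar markers had counts in both density groups of both tissues. Summed pan-endocrine markers also kept the labelled islets (19167 CPM or more) above every pancreas library, but the 12AS51 islets, at 5879 CPM, lay below the pancreas of 15LS30, at 6380 CPM. The same pair gave 2292 and 8099 CPM for summed beta cell markers. These CPM use column totals, whereas the tests also scale each library by a TMM factor. That factor was 0.123 for the 12AS51 islets and 1.31 for the 15LS30 pancreas, and with it the order of the pair is reversed for both sums. Fibroblast and endothelial sums overlapped between the tissues. Islets hold alpha, delta and other cells as well as beta cells, so a level in islets is not a level in beta cells. In such bulk samples, fewer cells of a type and less RNA per cell cannot be told apart.

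The largest contrast among the members was between the isoenzymes that control phosphofructokinase. PFKFB2 was higher in islets and PFKFB1 was higher in pancreas. LDHB and HK1 were lower in islets than in pancreas, while LDHA, a gene held low in rodent beta cells, did not pass the test. In all, 1 member was higher in islets, 4 were lower and 2 did not pass, by edgeR's quasi-likelihood test at a Benjamini-Hochberg adjusted p of 0.05, with 18 islet and 17 pancreas libraries. Over all 12339 genes tested, 31.1% were higher in islets and 31.5% were lower. With that background, a call is common between these tissues, and the size of each difference says more than the count of calls. The median log2 fold change was −1.21 over the 7 members and −0.01 over all genes tested.

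**Figure D1:**
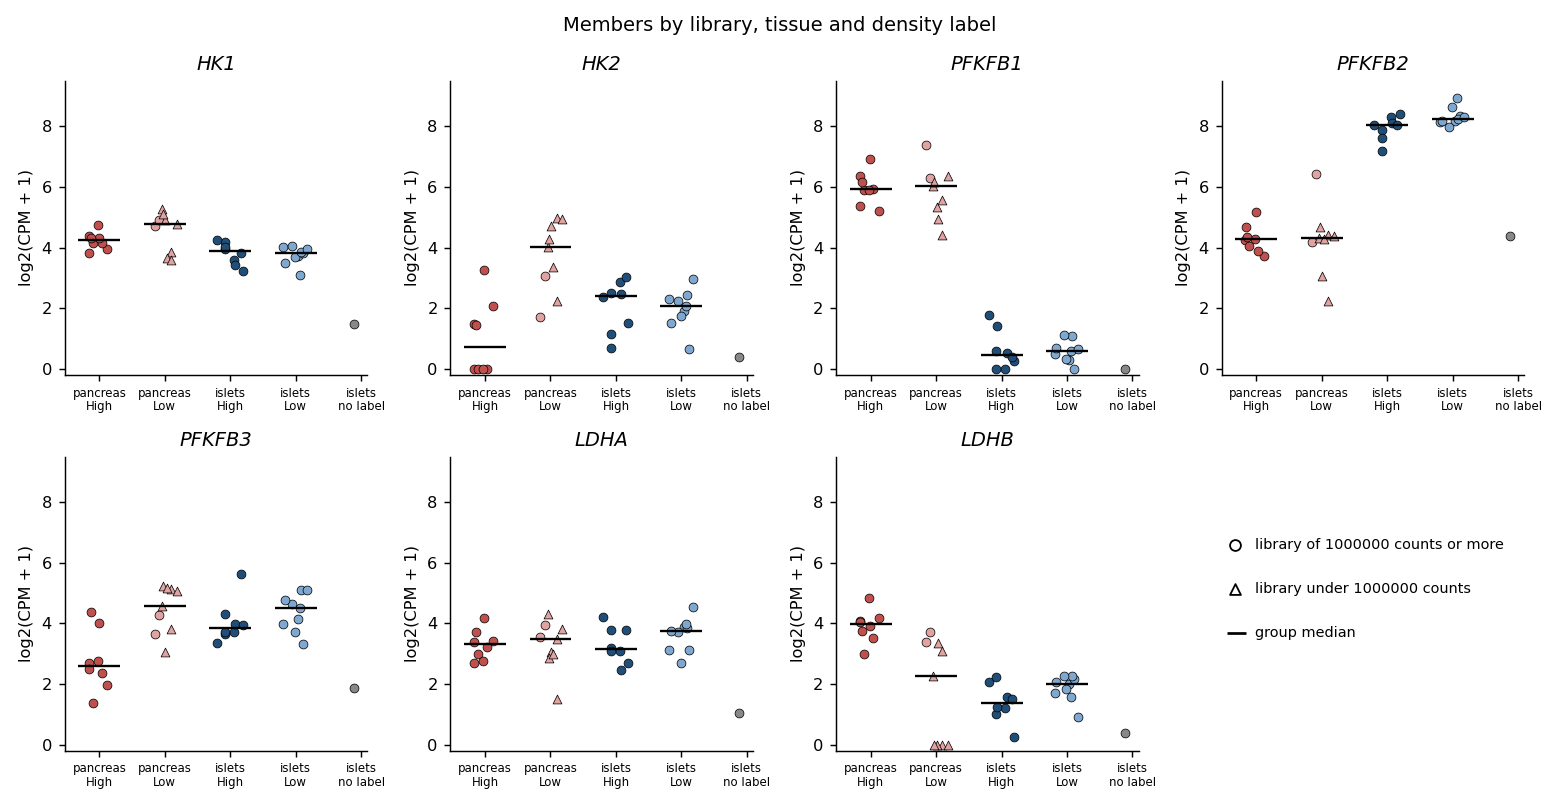
Level of each of the 7 genes in every library, as log2(CPM + 1) with CPM from column totals, by tissue and density label. Each point is 1 library, triangles are libraries under 1000000 counts and bars are group medians. PFKFB1 separates the tissues completely, and PFKFB2 does so apart from the islets of 12AS51.

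PFKFB2 (ENSSSCG00000015660), the form best known from heart and also expressed in beta cells, ranged from 19.7 to 495 CPM in the 18 islet libraries, with a median of 286. In the 17 pancreas libraries it ranged from 3.73 to 84.9 CPM with a median of 18.7. The islets of 12AS51 gave the value of 19.7, and the next lowest islet library reached 145 CPM, above every pancreas library. Islets averaged 278 ± 98.6 CPM (SD, n = 18), against 22.0 ± 17.7 CPM (SD, n = 17) for pancreas. The log2 fold change of islets against pancreas was 3.14 (SE 0.19, adjusted p = 1.24e-17). In pancreas the highest value, 84.9 CPM, belonged to the Low library of 15LS30. The same library had the highest sum of pan-endocrine markers in pancreas, 6380 CPM against 138 to 1151 CPM in the other 16 libraries, and the part of that in its PFKFB2 level was not tested.

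PFKFB1 (ENSSSCG00000024814), the form best known from liver and skeletal muscle, went the other way. It had 43 counts in total over the 18 islet libraries, where it ranged from 0 to 2.44 CPM with a median of 0.425, and 4 libraries were at 0. In pancreas it ranged from 20.3 to 165 CPM with a median of 60.9. Every pancreas library, shallow ones included, was above every islet library. Islets against pancreas had a log2 fold change equal to −7.30 (SE 0.30, adjusted p = 8.97e-23), the largest among the members. Only 5 of the islet libraries reached the floor of 3 counts, so the level in islets is near the limit of detection and its size is loosely set.

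PFKFB3 (ENSSSCG00000011133), a form induced by growth and low oxygen in many cell types, ranged from 2.69 to 48.9 CPM in islets, with a median of 14.8, and from 1.59 to 37.0 CPM in pancreas, with a median of 13.1. The tissues overlapped widely. Between them the log2 fold change was 0.10 (SE 0.32, adjusted p = 0.802). Without the shallow pancreas libraries it was 0.73 and passed the test (adjusted p = 0.0326), and over 11 alternatives other than single libraries left out the adjusted p ran from 0.0326 to 0.884.

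Read as a share within a library, PFKFB2 made up 99.1 to 100% of the counts of PFKFB2 and PFKFB1 together in islets, with a median of 99.9%. In pancreas the share was 7.41 to 52.1% with a median of 22.7%. No pancreas library came near the islet range. The highest pancreas share, 52.1%, was again that of the 15LS30 library. Counts are not scaled to gene length, so these shares compare libraries and do not say which isoenzyme is the more abundant.

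**Figure D2:**
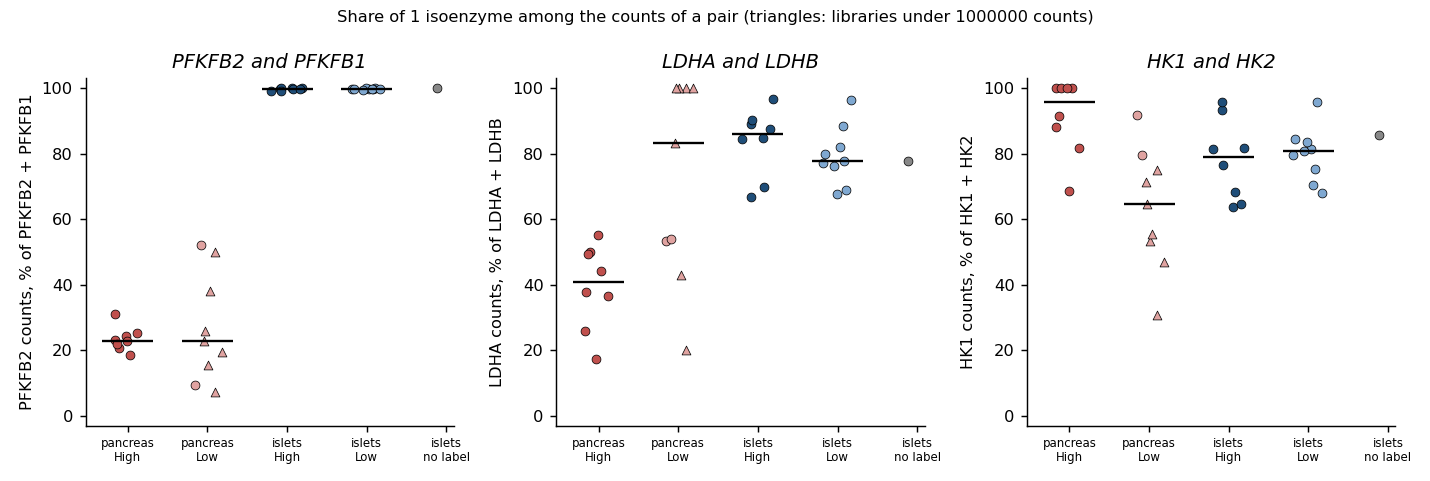
Share of the first gene among the summed counts of each isoenzyme pair, in percent, by tissue and density label. Each point is 1 library, triangles are libraries under 1000000 counts and bars are medians. The PFKFB2 share lies at 99.1% or above in islets and at 52.1% or below in pancreas.

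HK1 (ENSSSCG00000010253), the housekeeping hexokinase, ranged from 1.79 to 18.1 CPM in islets with a median of 13.3. In pancreas it ranged from 11.2 to 37.7 CPM with a median of 18.9. The ranges overlapped, and most islet libraries lay in the lower part of the pancreas range. Islets averaged 12.5 ± 3.93 CPM (SD, n = 18), against 21.3 ± 8.03 CPM (SD, n = 17) for pancreas. The log2 fold change was −1.21 (SE 0.15, adjusted p = 7.85e-09). It is larger than the ratio of the mean CPM because the fit scales libraries by TMM, with a median factor of 1.35 in islets and 0.876 in pancreas.

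HK2 (ENSSSCG00000008261), the insulin-regulated hexokinase of muscle and fat, was sparse in both tissues. In islets it ranged from 0.298 to 7.25 CPM with a median of 3.47, and in pancreas from 0 to 30.4 CPM with a median of 3.73. The high pancreas values were those of the Low libraries, most of them shallow, and the medians of the tissues were close. Islets against pancreas had a log2 fold change equal to −1.26 (SE 0.55, adjusted p = 0.0464), just past the threshold. Without the shallow libraries it was 0.18 (adjusted p = 0.744), without the animals coded 14 it was −0.05 (adjusted p = 0.957), and blocking on the animal gave −0.93 (adjusted p = 0.284). Over the 11 alternatives other than single libraries left out, the adjusted p ran from 0.00122 to 0.957, and the call was also lost in 19 of 35 fits that left out 1 library. HK2 therefore gave no difference between the tissues that held across libraries.

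LDHA (ENSSSCG00000013366), the subunit that predominates in muscle, ranged from 1.04 to 22.4 CPM in islets with a median of 10.1. In pancreas it ranged from 1.87 to 18.9 CPM with a median of 9.43. The 2 tissues covered nearly the same range. Their log2 fold change was −0.39 (SE 0.19, adjusted p = 0.0728), and the miss does not show that the levels were equal. Its sign is negative although the median CPM is higher in islets, because the fit scales libraries by TMM, as for HK1. The difference passed with upper-quartile scaling (−0.50, adjusted p = 0.0267), which also moves the median of all genes to −0.14. The adjusted p over 11 alternatives ran from 0.0267 to 0.895.

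LDHB (ENSSSCG00000032557), the subunit that predominates in heart, ranged from 0.188 to 3.77 CPM in islets with a median of 2.12. In the 10 pancreas libraries that are not shallow it ranged from 6.98 to 27.5 CPM with a median of 13.2, with no overlap with islets. Of the 7 shallow libraries, 4 were at 0, where the floor allows up to 9.26 to 10.9 CPM, and the others had 3.77 to 9.28 CPM. Over all libraries the log2 fold change was −2.87 (SE 0.31, adjusted p = 1.74e-10), and the call held in each of the 11 alternatives and in each of the 35 fits without 1 library.

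Among the counts of LDHA and LDHB together, LDHA made up 66.7 to 96.7% in islets, with a median of 81.0%. In the 10 deeper pancreas libraries its share was 17.2 to 55.2%, with a median of 46.7%, below every islet library. The shallow libraries, with 1 to 5 LDHA counts each, spread over most of the scale. For HK1 with HK2 the HK1 share was 63.6 to 95.9% in islets and 68.6 to 100% in the deeper pancreas libraries, with wide overlap. RefSeq lists a second LDHB locus in the pig, and the counting rule for reads that match several places is not given, so the absolute levels of LDHA and LDHB are uncertain.

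The islets of 12AS51 had the lowest CPM of all 18 islet libraries for HK1, HK2, LDHA, PFKFB2 and PFKFB3, the next to lowest for LDHB, and a count of 0 for PFKFB1. These CPM use column totals, and the TMM factor of this library was 0.123, against 0.827 to 1.54 in the other islet libraries. With that scaling, HK1, HK2, LDHA and PFKFB3 were not lowest in this library. Leaving out the 2 islet samples with a source name of Pancreas, 5 members were called, as with them.

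The genes around these steps were taken as 7 lists, and the shares called over all genes given above apply to each of them. Of 2 glucose carriers tested, SLC2A2, the main carrier of beta cells in rodents, was higher in islets (log2 fold change 1.92, SE 0.22), and SLC2A5, a fructose carrier, was lower (−6.36, SE 0.40). SLC2A3 was not analysed here. For SLC2A2 the islet mean was 94.5 ± 38.7 CPM (SD, n = 18) and the pancreas mean 17.0 ± 11.6 CPM (SD, n = 17).

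Of 8 genes for glucose phosphorylation and glucose phosphate, 3 were higher in islets and 2 lower. G6PC2, an islet form of glucose-phosphatase that also stands among the beta cell markers, was higher by 4.48 (SE 0.45), and SLC37A4, the carrier of glucose phosphate into the endoplasmic reticulum, by 0.71 (SE 0.15). GCKR, a regulatory protein best known from liver, was lower (−2.77, SE 0.46), as was ADPGK, which phosphorylates glucose with ADP (−0.64, SE 0.13). The highest adjusted p of these 4 was 0.000108.

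Of 16 genes for the later steps of glycolysis, 9 were higher in islets, 2 were lower and 5 did not pass, with a median log2 fold change of 0.97 against −0.01 for all genes. GAPDH rose by 3.02 (SE 0.20), the aldolase ALDOC by 2.79 (SE 0.44) and PKM, the pyruvate kinase of most non-hepatic tissues, by 2.32 (SE 0.17). For PKM the islet mean was 593 ± 170 CPM (SD, n = 18) and the pancreas mean 79.7 ± 40.6 CPM (SD, n = 17). For GAPDH these were 397 ± 149 CPM (SD, n = 18) and 34.9 ± 22.6 CPM (SD, n = 17), and mammalian genomes carry many processed copies of it. The muscle enolase ENO3 was lower (−1.23, SE 0.30). The highest adjusted p of these 4 was 0.000422, for ENO3. Among the 3 other genes for the control of fructose bisphosphate, FBP1, a gluconeogenic phosphatase, was lower (−2.05, SE 0.23, adjusted p = 2.89e-10), PFKFB4 had −0.08 (SE 0.32) and TIGAR 0.42 (SE 0.20), neither of which passed.

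Lactate and pyruvate genes were split, with 5 higher, 6 lower and 4 not passing of 15, and a median of −0.36. EMB, a partner that brings monocarboxylate carriers to the membrane, was higher by 3.10 (SE 0.27), MPC2, a subunit of the mitochondrial pyruvate carrier, by 1.01 (SE 0.24), and PDP1, which activates pyruvate dehydrogenase, by 0.89 (SE 0.20). The monocarboxylate carrier SLC16A7 was lower (−3.64, SE 0.31). The kinases that inhibit pyruvate dehydrogenase, PDK2 (−2.39, SE 0.19) and PDK3 (−2.06, SE 0.19), were lower too, and among these 6 the highest adjusted p was 0.000319.

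The shuttles that carry reducing power from cytosolic NADH into mitochondria had 4 genes higher, 1 lower and 5 not passing of 10. GPD2, the mitochondrial enzyme of the glycerol phosphate shuttle, was higher by 2.86 (SE 0.21), and the malate dehydrogenases MDH1 (1.66, SE 0.21) and MDH2 (0.72, SE 0.19) were higher as well. GPD1L was lower (−1.28, SE 0.29), and the adjusted p of these 4 was at most 0.00108.

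Other genes reported as held low in rodent beta cells had 1 higher, 8 lower and 3 not passing of 12, with a median of −1.52. TST, a mitochondrial sulfurtransferase, was lower (−4.44, SE 0.26), as were ARHGDIB, a GTPase regulator abundant in blood cells (−3.92, SE 0.27), and PDGFRA, a receptor of mesenchymal cells (−3.82, SE 0.26). OAT, an aminotransferase, was higher (0.38, SE 0.16, adjusted p = 0.0408), which was lost without the shallow libraries (0.33, adjusted p = 0.0522). PDGFRA also stands among the fibroblast and stellate markers, whose sum was 102 to 968 CPM in islets and 67.2 to 493.4 CPM in pancreas. Summed lymphocyte markers were 0 to 4.88 CPM in islets and 0.317 to 71.0 CPM in pancreas. The part of these cells in the list was not tested.

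**Figure D3:**
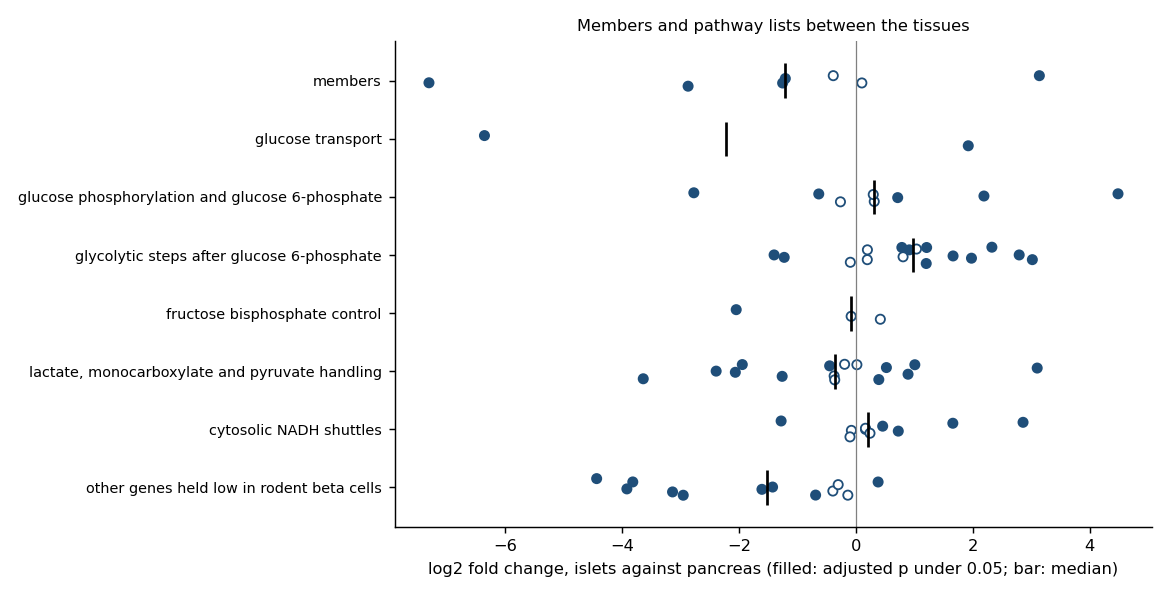
Log2 fold change of islets against pancreas for the members and for the tested genes of the 7 lists. Each point is 1 gene, filled where the adjusted p is under 0.05, and bars are medians. The later steps of glycolysis centre on 0.97 and the other genes held low in rodent beta cells on −1.52.

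Between High and Low pancreas, 3 of the 7 members passed the test. HK2 and PFKFB3 were lower in the High libraries and LDHB was higher, with 8 High and 9 Low libraries. Over the 10634 genes tested, 18.8% were higher in High and 21.5% were lower, so 3 calls among 7 genes is close to the rate of all genes. The median log2 fold change was −0.32 over the members and 0.07 over all genes. None of the 3 calls held without the shallow libraries, without the animals coded 14, or with the acinar level as a covariate, and in each of these 3 fits edgeR called 0 of all genes. An unadjusted p under 0.05 was reached there by 1222, 2183 and 501 genes, and by 2, 1 and 0 members. The first 2 of these fits set 8 High libraries against only 2 and 3 Low libraries. The covariate of the other fit was the mean TMM-scaled log2 CPM of the acinar markers. Summed CPM of these markers did not overlap between High and Low, so acinar level and label are hard to tell apart. Overlap of the covariate itself was not examined. The loss of the calls therefore does not show that the differences are absent. DESeq2 was run on all 17 libraries only, where it called the same number of members, 3.

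HK2 ranged from 0 to 8.63 CPM in High pancreas, with a median of 0.861 and 4 of 8 libraries at 0. In Low pancreas it ranged from 2.24 to 30.4 CPM with a median of 15.1. The 2 Low libraries that are not shallow had 2.24 and 7.43 CPM, within the High range, and the 7 shallow ones had 3.73 to 30.4 CPM from only 2 to 9 counts each. The log2 fold change of High against Low was −3.16 (SE 0.76, adjusted p = 0.00268). It was −1.01 (adjusted p = 0.840) without the shallow libraries and −2.39 (adjusted p = 0.308) without the animals coded 14.

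PFKFB3 ranged from 1.59 to 19.6 CPM in High pancreas with a median of 5.02. In Low pancreas it ranged from 7.28 to 37.0 CPM with a median of 22.6. The 2 Low libraries that are not shallow, at 11.6 and 18.6 CPM, again lay within the High range. High against Low had a log2 fold change equal to −1.77 (SE 0.42, adjusted p = 0.00252), with −0.63 (adjusted p = 0.782) without the shallow libraries and −1.04 (adjusted p = 0.343) without the animals coded 14.

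LDHB ranged from 6.98 to 27.5 CPM in High pancreas with a median of 14.8. In Low pancreas it ranged from 0 to 12.2 CPM with a median of 3.77. The 2 Low libraries that are not shallow had 9.40 and 12.2 CPM, and the 4 libraries at 0 had floors of 9.26 to 10.9 CPM, which lie within the High range. High against Low had a log2 fold change equal to 1.29 (SE 0.42, adjusted p = 0.0179), with 0.95 (adjusted p = 0.470) without the shallow libraries and 1.15 (adjusted p = 0.210) without the animals coded 14. Over 10 alternatives other than single libraries left out, the adjusted p ran from 0.00012 to 1 for HK2, from 0.00022 to 1 for PFKFB3 and from 0.00204 to 1 for LDHB.

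**Figure D4:**
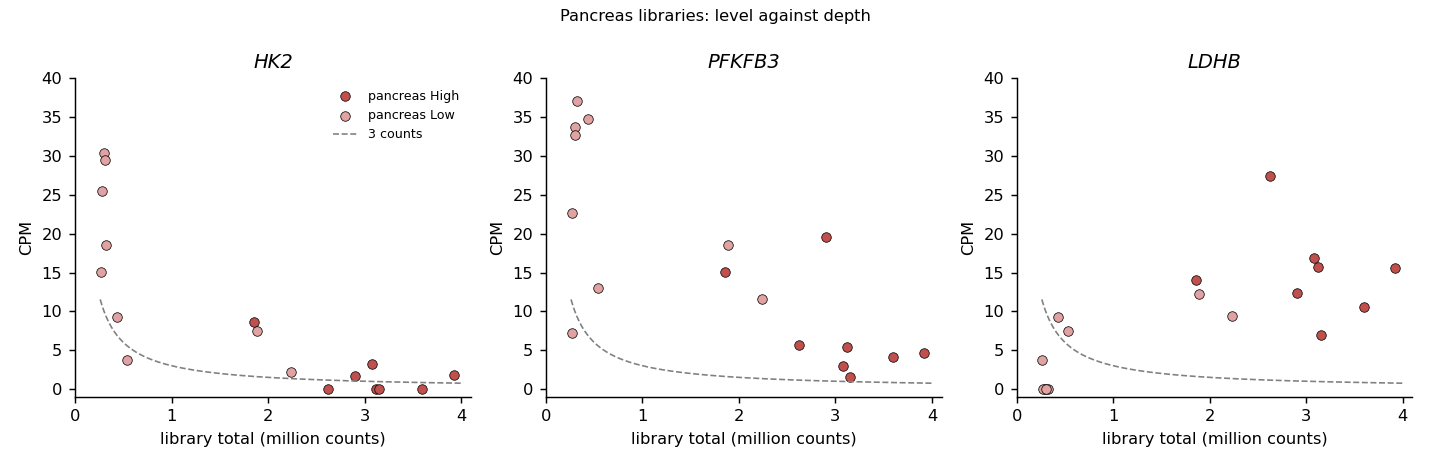
CPM of HK2, PFKFB3 and LDHB in the 17 pancreas libraries against the library total, on an axis in units of 1000000 counts, by density label. The broken line is the CPM that 3 counts are worth. The 7 Low libraries under 1000000 counts hold the highest HK2 values and the LDHB values of 0.

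The other 4 members did not pass. The log2 fold change of High against Low pancreas was −0.39 for HK1 (SE 0.24, adjusted p = 0.201), −0.08 for LDHA (SE 0.30, adjusted p = 0.912), −0.07 for PFKFB1 (SE 0.28, adjusted p = 0.856) and −0.32 for PFKFB2 (SE 0.30, adjusted p = 0.416). For PFKFB1 the High mean was 66.1 ± 26.7 CPM (SD, n = 8) and the Low mean 66.3 ± 42.7 CPM (SD, n = 9). Among the 11 animals whose 2 tissues share a label, HK1 passed (−1.14, adjusted p = 0.00427), as did PFKFB1 (−0.70, adjusted p = 0.0300). Only 3 members passed the filter on low counts there. Of all 4949 genes tested in that fit, 1442 were called higher and 1386 lower, so a call was common. The Low animals among these 11 are all coded 14 and all have shallow pancreas libraries. Label, depth and animal code therefore cannot be told apart in that fit. The adjusted p over 11 alternatives ran from 0.00427 to 1 for HK1 and from 0.0300 to 1 for PFKFB1.

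Cell markers moved with the same division of the pancreas libraries. Summed acinar markers were 156861 to 263099 CPM in High and 10768 to 114425 CPM in Low, without overlap, and the 13 markers all had counts in both groups. Lymphocyte markers summed to 0.317 to 15.6 CPM in High and 8.49 to 71.0 CPM in Low. Erythroid markers summed to 0.556 to 16.7 CPM in High and 7.61 to 49.1 CPM in Low. The median sum of duct markers was 1768 CPM in High and 483 CPM in Low, that of endothelial markers 319 and 118 CPM, that of beta cell markers 626 and 213 CPM, and that of alpha cell markers 366.5 and 111 CPM, each with overlapping ranges. Myeloid markers had the opposite order, with medians of 62.2 CPM in High and 125 CPM in Low. With the acinar level as a covariate the log2 fold changes were 0.28 for HK2, −0.35 for PFKFB3 and 0.65 for LDHB, all with an adjusted p of 1, and with the pan-endocrine level as a covariate the 3 calls held. The part of the duct, endothelial and blood cell markers was not tested. Depth and density label cannot be told apart in the 7 shallow libraries, nor can animal code in 6 of them.

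In the lists, the pancreas comparison called 0 higher and 4 lower of 8 genes for glucose phosphorylation, 3 and 4 of 12 for later glycolysis, 0 and 1 of 3 for fructose bisphosphate, 4 and 1 of 15 for lactate and pyruvate, 3 and 0 of 9 for the shuttles, 2 and 1 of 11 for the other genes held low in beta cells, and none of 2 glucose carriers. GCKR was lower in High (−2.82, SE 0.48), as was HKDC1, a hexokinase relative (−2.39, SE 0.54). The enolase ENO1 was higher (1.38, SE 0.27), with PGAM1 (1.14, SE 0.39) and ALDOA (1.07, SE 0.27), and the neuronal and endocrine enolase ENO2 was lower (−3.34, SE 0.56), with PFKP (−1.84, SE 0.54) and ENO3 (−1.56, SE 0.44). Among these 8 the highest adjusted p was 0.0214, for PGAM1. Without the shallow libraries edgeR called 0 of the 67 list genes tested, with 5 higher and 3 lower at an unadjusted p under 0.05.

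PFKFB4, another bifunctional enzyme, was lower in High (−2.23, SE 0.46). Among pyruvate genes, the kinases PDK4 (2.43, SE 0.59) and PDK1 (1.65, SE 0.31) and the dehydrogenase subunit PDHB (1.29, SE 0.31) were higher and pyruvate carboxylase, PC, was lower (−1.30, SE 0.33). The shuttle genes GPD1L (2.03, SE 0.36), MDH2 (1.20, SE 0.30) and GOT2 (0.89, SE 0.29) were higher. Of the other genes held low in beta cells, YAP1 (0.81, SE 0.32) and ARHGDIB (0.80, SE 0.31) were higher and IGFBP4 was lower (−1.40, SE 0.36). The largest adjusted p among these 11 was 0.0458, for YAP1. The fixed comparators SLC2A2 (−0.34, SE 0.34), PKM (0.32, SE 0.27) and GAPDH (−0.03, SE 0.29) did not pass.

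Between High and Low islets, no member passed. This comparison had 8 High and 9 Low libraries of similar depth. Of 12070 genes tested, edgeR called 0, or 0%, in either direction, 257 had an unadjusted p under 0.05, and DESeq2 called 0. PFKFB1 did not pass the filter on low counts, and the median log2 fold change of the other 6 members was −0.21 against 0.01 over all genes.

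PFKFB2 came nearest. It ranged from 145 to 336 CPM in High islets, with a median of 262, and from 250 to 495 CPM in Low islets, with a median of 303. The groups overlapped, with the lowest values in High and the highest in Low. The lowest, 145 CPM, was that of 15AS28, where 10 genes took 52.3% of counts against 21.8 to 37.0% in the other 16 labelled islet libraries. High against Low gave −0.28 on the log2 scale (SE 0.12), with an unadjusted p of 0.0365 and an adjusted p of 0.999, and −0.26 without 15AS28. HK1 ranged from 8.47 to 18.1 CPM in High and from 7.58 to 15.8 CPM in Low islets, a log2 fold change of 0.21 (SE 0.20). LDHA ranged from 4.56 to 17.3 CPM in High and from 5.41 to 22.4 CPM in Low islets, with a log2 fold change of −0.25 (SE 0.27).

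The remaining members overlapped just as fully. HK2 had a log2 fold change of 0.29 (SE 0.38), PFKFB3 of −0.17 (SE 0.32) and LDHB of −0.53 (SE 0.40), and the adjusted p was 0.999 for each of the 6 members tested. LDHB ranged from 0.188 to 3.71 CPM in High and from 0.862 to 3.77 CPM in Low islets, on 1 to 18 counts per library. The High library of 16CS60 had 48.9 CPM of PFKFB3, where the other 7 had 9.27 to 18.8. The comparators SLC2A2 (−0.27, SE 0.23), SLC16A3 (0.30, SE 0.39), PKM (−0.06, SE 0.09) and GAPDH (−0.04, SE 0.17) did not pass, nor did any gene of the 7 lists.

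**Figure D5:**
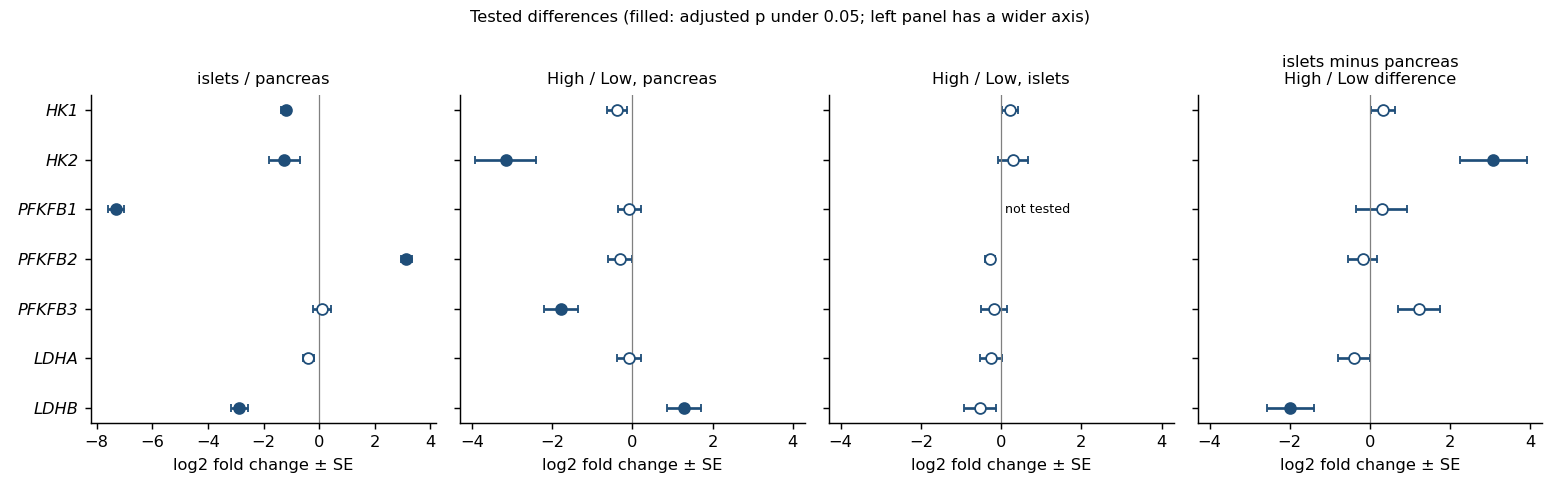
Log2 fold change from edgeR for the members in the 4 tests, with an SE derived from the test statistic. Filled points have an adjusted p under 0.05, and the left panel has a wider axis. The islet comparison has no filled point, and the 3 calls of the pancreas comparison were lost without the 7 shallow libraries.

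Whether density went with a different change in islets than in pancreas was tested as the difference of the differences, with 34 libraries. HK2 was higher in that contrast, 3.08 (SE 0.82, adjusted p = 0.00400), and LDHB was lower, −1.99 (SE 0.58, adjusted p = 0.00714). The other 5 members did not pass. Of 14337 genes tested, 22.2% were higher and 17.7% were lower. PFKFB3 had 1.23 (SE 0.52, adjusted p = 0.0544), and it passed with relative log expression scaling (1.42, adjusted p = 0.0305), upper-quartile scaling, DESeq2 and a block on the animal (1.64, adjusted p = 0.00572), within a range of 0.00572 to 0.867 over 9 alternatives. Without the shallow libraries HK2 had 1.26 (adjusted p = 0.639) and LDHB −1.58 (adjusted p = 0.241), and without the animals coded 14 they had 2.11 (adjusted p = 0.465) and −1.15 (adjusted p = 0.513). Over the 9 alternatives the adjusted p ran from 0.00038 to 0.639 for HK2 and from 0.00209 to 0.513 for LDHB.

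Its pancreas side is the same set of libraries as above. HK1 had 0.32 (SE 0.30), LDHA −0.40 (SE 0.40), PFKFB1 0.29 (SE 0.63) and PFKFB2 −0.18 (SE 0.36). In the lists it called 4 higher and 0 lower of 10 for glucose phosphorylation, 6 and 3 of 17 for later glycolysis, 1 and 0 of 3 for fructose bisphosphate, 2 and 6 of 16 for lactate and pyruvate, 0 and 3 of 10 for the shuttles, 2 and 1 of 13 for the other genes held low in beta cells and none of 4 glucose carriers.

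Among genes for glucose phosphorylation, GCKR (2.49, SE 0.59) and G6PC2 (1.97, SE 0.70) were higher in this contrast. In later glycolysis ENO2 (4.29, SE 0.84), ALDOC (2.87, SE 0.73) and the muscle form PGAM2 (2.79, SE 0.69) were higher, and ENO1 (−1.83, SE 0.38), ALDOA (−1.49, SE 0.38) and PGAM1 (−1.39, SE 0.42) were lower. PFKFB4 was higher (1.46, SE 0.42), as were SLC16A3, the carrier of lactate out of glycolytic cells (2.25, SE 0.82, on 22 counts in all of pancreas), and PC (0.94, SE 0.34). Lower were PDK4 (−2.48, SE 0.67), PDK1 (−1.88, SE 0.36) and PDHB (−1.51, SE 0.35), and the shuttle genes GPD1L (−2.22, SE 0.41), MDH2 (−1.48, SE 0.32) and GOT2 (−1.11, SE 0.32). Of the other genes held low in beta cells, ACOT7, a thioesterase (3.83, SE 0.99), and IGFBP4 (1.08, SE 0.38) were higher and YAP1 was lower (−1.19, SE 0.41). The adjusted p of all these genes was at most 0.0275, that of SLC16A3. SLC2A2 (−0.13, SE 0.42), PKM (−0.63, SE 0.33) and GAPDH (−0.24, SE 0.39) did not pass. Without the shallow libraries edgeR called 0 of the 75 list genes tested, with 4 higher and 9 lower at an unadjusted p under 0.05. Over all 15210 genes tested in that fit, 52 were called higher and 9 lower, and 2103 had an unadjusted p under 0.05. A call was thus rare for any gene there.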

How the data were processed

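The authors deposited whole-number counts of reads for each gene of the Ensembl pig annotation, with the libraries in columns and the tissues in separate tables. Per the submitters' processing notes, FastQC, HISAT2 2.0.2, Subread, edgeR and the build susScr3 were named, with no role or order. The strand setting, the annotation release and the handling of reads that match several places were not stated there. Reads shared by a gene and an overlapping or antisense neighbour therefore cannot be assigned with certainty, nor can those of near-identical copies. The deposited counts were used unscaled, and 14857 identifiers were paired with a symbol through a table of Ensembl names.

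Groups follow the density label and the tissue that the title gives, and columns were matched by animal code and tissue. No sample matched 1 of the columns, which was left unused, and 2 islet samples had no column. Of 128 pairs of libraries within a group, 0 were identical (lowest chi-square per degree of freedom 5.58).

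CPM uses column totals, and the printed means and SDs are of CPM. Each printed SE was derived from the edgeR test, as the absolute log2 fold change divided by the square root of the F statistic. It is not a fitted standard error. Tests used edgeR 4.0.16 (R 4.3.3), the filter filterByExpr, TMM factors and the robust quasi-likelihood fit, two-sided, adjusted by Benjamini-Hochberg over all genes tested, after the scripts were tested on simulated data. The tissue comparison held all 35 libraries and the others the libraries with a density label. Alternatives were other scalings and filters, DESeq2 1.42.0, removal of genes above 5% of a library, covariates for marker levels, and fits without single libraries, the shallow libraries, animals coded 14 or samples with discordant labels. The animal was a block in alternative fits, since the code in the titles pairs the tissues. In 15 animals with both tissues and labels, expression deviations correlated over 0.1 in 3 pairs (median 0.02), and the own pancreas was the best match in 4.

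The members and the lists were chosen with earlier results of these data known. All members are named, with SLC2A2, SLC2A3, SLC16A3, PKM and GAPDH, and up to 3 genes per list and direction with the largest change among those called. Some genes that this rule names are not reported here.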

Additional observations from a re-analysis of the deposited data

Results flagged for a closer look

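Of 28 groups of values checked for a library far from the rest of its group, 4 were found, where chance gives about 1 in 20. HK2 was at 8.63 CPM in the High pancreas of 16CS60, and the other 7 High libraries had 0 to 3.25 CPM. PFKFB3 was at 48.9 CPM in the islets of the same animal, and the other High islets had 9.27 to 18.8 CPM. PFKFB1 was at 165 CPM in the Low pancreas of 12FS161, and the other 8 Low libraries had 20.3 to 81.9 CPM. PFKFB2 was at 84.9 CPM in the Low pancreas of 15LS30, which also had the highest endocrine marker sum in pancreas, and the other 8 had 3.73 to 24.7 CPM.

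The density difference of 2 genes differed between the tissues by the test of that difference, at 3.08 for HK2 (adjusted p = 0.00400) and −1.99 for LDHB (adjusted p = 0.00714) on the log2 scale. Neither held without the shallow pancreas libraries, as given above. In this contrast 22.2% of all 14337 genes tested were called higher and 17.7% lower, so a call was common.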

How the results depend on the processing

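The calls of HK1, LDHB, PFKFB1 and PFKFB2 between the tissues held in all 11 alternatives and in all 35 fits without 1 library. Of the members, 4 to 6 were called in the latter fits. HK2 reversed to 0.18 without the shallow libraries and to 0.11 without those and the islet samples with a discordant source name. PFKFB3 reversed to −0.071 with upper-quartile scaling and −0.10 with DESeq2, and spanned −0.023 to 0.247 without 1 library. Upper-quartile scaling changed the split of all genes from 3834 higher and 3892 lower to 3351 and 4363.

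Between High and Low pancreas, 0 members were called without animals coded 14, without the shallow libraries and with the acinar covariate, against 3, and 2 to 3 without 1 library. HK2 passed the low-count filter in 10 of those 17 fits and was called in each. With the acinar covariate HK1 was 0.066, HK2 0.28 and LDHA 0.21. Without animals coded 14, HK1 was 0.013 and LDHA 0.027, and LDHA was 0.028 without the shallow libraries. With no low-count filter HK1 was 0.088, LDHA 0.34, PFKFB1 0.37 and PFKFB2 0.091, and with a filter of 1 CPM LDHA was 0.23 and PFKFB1 0.26. Without 1 library LDHA spanned −0.198 to 0.059, PFKFB1 −0.24 to 0.10 and PFKFB2 −0.50 to 0.14, the last positive only without 15LS30. The split of all genes was 1467 higher and 2772 lower with upper-quartile scaling, against 1998 and 2285.

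In islets without animals coded 14, HK2 was −0.03 and LDHB 0.052. For the difference of density effects, 0 members were called without animals coded 14 and without the shallow libraries, both chosen after the data were seen. Over all genes, edgeR called 9 higher and 0 lower of 14530 in the first of these fits, and 52 and 9 of 15210 in the second. Most genes therefore lost their call, not the members in particular. PFKFB2 was 0.25 and 0.50 there and 0.073 with upper-quartile scaling. With no low-count filter HK1 was −0.15 and PFKFB1 −0.17. Scaling moved the median of all genes in this contrast from 0.00 to 0.15 (relative log expression) and 0.26 (upper quartile), with 3629 higher and 2057 lower, and 3995 and 1670, against 3183 and 2535. With the animal as a replicate block, PFKFB1 was −0.34, PFKFB3 passed (1.64, adjusted p = 0.00572) and HK2 lost its tissue call, and the block changed no other call of a member. The causes were not tested.

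Shallow libraries hold 0 to 15 counts of each member other than PFKFB1, which limits every pancreas density value, and PFKFB1 in islets lies near the floor.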

Other observations

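Among the 12069 other genes tested in islets, those whose level followed LDHA most closely over the 18 islet libraries were ENSSSCG00000008170 (Spearman rho 0.81), ENSSSCG00000036716 (0.81) and METTL23, a methyltransferase-like gene (0.80). For HK1 they were ENSSSCG00000014031 (0.83), BCAS1 (0.79) and the linker histone H1-3 (0.76). Without the 2 libraries whose source name reads Pancreas the values ran from 0.75 to 0.82. They are the highest of many correlations over the same libraries and TMM factors, on a median of 41 counts for LDHA and 50 for HK1, and are a description only. No result for SLC16A1 can be set beside them.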
